A study of Mus musculus with 6 samples.

Results

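The 9 genes described here encode the structural proteins of caveolae and 2 of their membrane-bending partners: the caveolins *Cav1*, *Cav2* and *Cav3*, the cavins *Cavin1*, *Cavin2*, *Cavin3* and *Cavin4*, and *Ehd2* and *Pacsin2*. They were chosen by symbol from the 55401 genes in the count tables. All 9 were found, and 8 of them passed the filter on low counts and were tested, the exception being *Cav3*. The counts come from RNA-seq of subcutaneous white adipose tissue (scWAT) of 8-week-old male mice, with 3 libraries per genotype. The control mice, which the sample labels call WT, are named YT-FF in the study, which uses that name for mice with floxed *Yap* and *Taz* alleles. The YT-AKO mice had the genotype Yapfl/fl/Tazfl/fl;AdipoqCre, so both groups shared the floxed alleles. Cre driven by *Adipoq* acts in mature adipocytes, while the whole tissue was sequenced, with its endothelial, stromal and immune cells. The study's methods give 3 mice per group.

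Caveolae are flask-shaped pits of the plasma membrane that are especially dense in adipocytes, endothelial cells and muscle cells. Caveolin-1 and caveolin-2 insert into the inner leaflet of the membrane and cavins form a coat around them, while caveolin-3 and cavin-4 take these places in muscle. In fat, caveolae buffer membrane tension as the lipid droplet grows and hold insulin receptors and fatty acid carriers, and people who lack caveolin-1 or cavin-1 lose their body fat.

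The promoters of the 3 genes on which the comparisons below turn are shown here: *Cav1* and *Cavin1*, which encode the obligatory pair of an adipocyte caveola, and *Cavin2*, whose level relative to *Cavin1* separated the groups. Each is the run of 250 bases before a transcription start, the most upstream of the gene, of the RefSeq annotation of GRCm38.p6, read 5′ to 3′ on the strand of the gene. Capitals mark every match, on either strand, to the letters GGAATG (the core of the site bound by TEAD factors, through which YAP and TAZ reach DNA), GGGCGG (a GC box), CCAAT or TATAAA. The *Cav1* window lies at chr6:17306085-17306334 on the plus strand, the *Cavin1* window at chr11:100970618-100970867 on the minus strand and the *Cavin2* window at chr1:51288876-51289125 on the plus strand. In the annotation used for the counts *Cavin1* begins farther upstream, at base 100970887, so its whole window lies within the gene as counted.
Cav1: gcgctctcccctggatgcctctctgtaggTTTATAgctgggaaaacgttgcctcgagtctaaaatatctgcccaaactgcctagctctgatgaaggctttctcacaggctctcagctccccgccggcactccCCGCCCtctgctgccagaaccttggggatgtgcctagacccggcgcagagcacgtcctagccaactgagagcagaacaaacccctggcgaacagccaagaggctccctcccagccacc
Cavin1: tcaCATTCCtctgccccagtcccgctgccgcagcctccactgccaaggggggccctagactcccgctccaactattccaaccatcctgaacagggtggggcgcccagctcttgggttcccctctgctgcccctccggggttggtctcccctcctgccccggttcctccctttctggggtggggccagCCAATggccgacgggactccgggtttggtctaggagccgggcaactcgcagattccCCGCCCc
Cavin2: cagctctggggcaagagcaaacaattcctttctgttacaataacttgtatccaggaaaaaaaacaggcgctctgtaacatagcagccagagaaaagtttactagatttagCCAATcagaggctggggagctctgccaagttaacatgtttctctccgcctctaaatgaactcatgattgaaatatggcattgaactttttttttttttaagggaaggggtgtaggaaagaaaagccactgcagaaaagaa
Counting back from the start, the *Cav1* window held a GC box at -118 and the TATA letters at -221, both read on the other strand. The *Cavin1* window held the TEAD letters at -247 and a GC box at -7, both read on the other strand, and a CCAAT box at -63, and the *Cavin2* window held a single CCAAT box at -140. No match overlapped another in these windows. Of 32851 windows of this length in the annotation, 12.6% held the TEAD letters, 32.7% a GC box, 33.8% a CCAAT box and 12.4% the TATA letters. RefSeq windows were found for 8 of the 9 genes, 12 windows in all, of which *Cav1* had 2, and the TEAD letters were in 2 of the 12, which are overlapping windows of *Cavin1*. The other *Cav1* window, at chr6:17307390-17307639 before a start farther downstream, held none of the 4 motifs. A match of letters is a description of the sequence and not a binding site.

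The deletion was read first from the targeted genes. *Yap1* had 69.1, 57.1 and 66.7 CPM in YT-FF (raw counts divided by the library total after TMM scaling, as in all CPM below unless stated) and 37.7, 29.0 and 31.3 CPM in YT-AKO, a log2 fold change of -0.98 ± 0.167 (SE; adjusted p = 0.0179, edgeR quasi-likelihood (QL) test, Benjamini-Hochberg adjusted over 16807 genes). *Wwtr1*, which encodes TAZ, was higher rather than lower in the same 3 libraries (175, 133 and 161 CPM against 77.5, 76.0 and 98.8 CPM; log2 fold change 0.89, adjusted p = 0.0220 by the same test), so they are called the libraries labelled YT-AKO below. After correction for gene length the log2 fold change was -0.57 for *Yap1* (adjusted p = 0.0487) and 1.02 for *Wwtr1* (adjusted p = 0.0215), both by the edgeR QL test. Counts over whole genes do not show a deleted exon. By immunoblot, the study reports clearly less YAP and TAZ protein in scWAT of YT-AKO mice.

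The libraries held 17740987 to 21838493 counts. Library 2 labelled YT-AKO stood farthest from the others on the first principal component and had the lowest TMM factor, 0.777 against 0.954 to 1.16 in the rest. Across all genes tested, 3636 of 16807 (21.6%) differed between the groups at an adjusted p under 0.05, 2121 of them higher (12.6%) and 1515 lower (9.01%). Higher calls were 58.3% of these, but 28.7% when library totals alone set the scale, which moved the median log2 fold change of all genes from -0.02 to -0.34. The fold changes also followed exon length, with a median of 0.60 for genes of 1 to 2 kb and -0.38 for genes over 6 kb. The summed markers of adipocytes were 15885 to 20935 CPM in YT-FF and 36395 to 80315 CPM in the libraries labelled YT-AKO, with 3 of 8 higher. Most of that sum was *Cfd* (mean 5538 and 28940 CPM) and *Fabp4* (5205 and 13197 CPM), while *Adipoq* overlapped between the groups and was not called (1649 and 2225 CPM). The markers of brown and beige adipocytes summed to 153 to 226 and 1644 to 3607 CPM, with 6 of 6 higher. The endothelial markers, from the other caveola-rich cells of fat, summed to 850 to 944 and 831 to 1332 CPM, and 1 of 10 was called (*Kdr*, lower by a log2 fold change of -0.78). That sum hides opposite movements, as 6 of the 10 did not overlap between the groups, beside 51.5% of all genes tested. *Pecam1*, *Cdh5*, *Kdr* and *Tek* were lower, and *Cldn5* and *Vwf* higher. The highest sum, 1332 CPM, was that of library 2 labelled YT-AKO, where *Cldn5* had 454 CPM. In tissue RNA of this kind, fewer cells of a type and less RNA per cell cannot be told apart.

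No caveolar gene passed the test for a difference between the genotypes. Of the 8 tested, 0 were called (21.6% of all genes were), and 0 had an unadjusted p under 0.05 in edgeR (6852 of all 16807 genes did). DESeq2 and limma-voom also called 0. Their median log2 fold change was 0.06, beside -0.02 for all genes, with 5 of 8 above 0, and for 0 of the 9 genes did the CPM of the groups fall apart, against 51.5% of all genes tested. Together the 9 genes took 0.378, 0.401 and 0.523% of the counts in YT-FF 1, 2 and 3 and 0.344, 0.258 and 0.436% in the libraries labelled YT-AKO 1, 2 and 3. In TMM-scaled CPM their sum was 3301 to 4912 in YT-FF and 3321 to 4568 in the libraries labelled YT-AKO. Without library 2 labelled YT-AKO the test still called 0 of the 8.

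*Cav1*, the caveolin without which adipocytes form no caveolae (ENSMUSG00000007655, chromosome 6, 17306335 to 17341452 of mm10), was the most abundant of the set. It had 1228, 1308 and 1795 CPM in YT-FF and 1341, 1290 and 1741 CPM in the libraries labelled YT-AKO. In each group library 3 was the highest, and the groups overlapped fully. Its log2 fold change was 0.01 ± 0.235 (SE, n = 3 per group; adjusted p = 0.970, edgeR QL test, Benjamini-Hochberg), and the 95% interval ran from 0.693-fold to 1.47-fold. This sign is not a direction, since it turned under library totals alone (-0.29), under 3 other settings of the fit and with 3 of the 6 libraries left out in turn.

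*Cav2* is the upstream neighbour of *Cav1* on the same strand (chromosome 6, 17281185 to 17289115), with 17219 bp between the genes. Its product reaches the cell surface in complex with caveolin-1. It had 377, 382 and 505 CPM in YT-FF and 391, 280 and 449 CPM in the libraries labelled YT-AKO, of which library 2 was the lowest of all 6. The log2 fold change was -0.18 ± 0.231, with an interval of 0.611-fold to 1.28-fold. It came to -0.0077 without library 2 labelled YT-AKO, -0.0209 without YT-FF 3 and -0.32 without library 3 labelled YT-AKO, so the lower mean rests on single libraries. *Cav3*, the caveolin of muscle fibres (chromosome 6, 112459505 to 112472872), was near the limit of detection. It had 9, 0 and 1 raw counts in YT-FF and 26, 4 and 2 raw counts in the libraries labelled YT-AKO. The count of 0 in YT-FF 2 allows up to 3 counts, or 0.152 CPM of the library total.

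Among the cavins, *Cavin1* (chromosome 11, 100956733 to 100970887, minus strand) encodes the coat protein that caveolae require in every tissue. It had 580, 630 and 870 CPM in YT-FF and 807, 705 and 951 CPM in the libraries labelled YT-AKO. Its mean went from 693 ± 155 to 821 ± 124 CPM (SD, n = 3), and YT-FF 3 lay above 2 of the 3 libraries labelled YT-AKO. The log2 fold change was 0.24 ± 0.226 (0.824-fold to 1.70-fold) and was -0.06 under library totals alone.

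*Cavin2*, which binds phosphatidylserine and is known for shaping caveolae in some endothelia and in fat (chromosome 1, 51289126 to 51302960), had 325, 358 and 603 CPM in YT-FF and 345, 309 and 333 CPM in the libraries labelled YT-AKO. YT-FF 3 stood far above the other 5 libraries, which lay between 309 and 358 CPM. The log2 fold change was -0.38 ± 0.256 (0.508-fold to 1.16-fold; adjusted p = 0.287, edgeR QL test, Benjamini-Hochberg), and it shrank to -0.05 without YT-FF 3. On this TMM scale the lower mean of *Cavin2* therefore rests on 1 library. Under library totals alone, with every library kept, the log2 fold change was -0.69, beside a median of -0.34 for all genes. It was not called there either (adjusted p = 0.0777, edgeR QL test, Benjamini-Hochberg).

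*Cavin3*, a cavin that binds protein kinase C delta (chromosome 7, 105480083 to 105482300, minus strand), varied most among the abundant members. Its CPM were 80.3, 73.1 and 147 in YT-FF and 99.3, 223 and 183 in the libraries labelled YT-AKO. Library 1 of the latter lay within the YT-FF range and the other 2 lay above it. The log2 fold change was 0.75 ± 0.363 (0.940-fold to 3.01-fold; adjusted p = 0.158, edgeR QL test, Benjamini-Hochberg). Its exons sum to 1662 bp, and after correction for gene length the value was 0.40. Of these exon bases 22.5% are shared with *Gm45667* on the opposite strand, and since the counting ignored strand and dropped fragments that overlapped both genes, the counts of *Cavin3* cover the rest of the gene only. *Gm45667* itself held 1, 0 and 2 counts in YT-FF and 9, 14 and 0 in the libraries labelled YT-AKO. The other 8 members share no exon base with another gene.

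*Cavin4*, the cavin of skeletal and heart muscle (chromosome 4, 48663514 to 48673502), had 11, 26 and 11 raw counts in YT-FF and 35, 27 and 18 raw counts in the libraries labelled YT-AKO. Exact Poisson intervals, which cover counting error only, ran from 5.49 to 19.7 for 11 counts and from 24.4 to 48.7 for 35 counts. The log2 fold change of 1.10 ± 0.503 was the largest of the set and did not pass (adjusted p = 0.140, edgeR QL test, Benjamini-Hochberg). The 95% interval, 0.954-fold to 4.80-fold, was the widest of the set.

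*Cav3* and *Cavin4* were read beside 10 skeletal muscle markers, as both are muscle forms. The markers summed to 534, 141 and 194 CPM in YT-FF and to 3852, 532 and 214 CPM in the libraries labelled YT-AKO, with library 1 of the latter far above the rest. That library also held 26 of the 42 counts of *Cav3* in the study and the most counts of *Cavin4*. For *Cav3* the next highest library, YT-FF 1, was also the next highest in the muscle sum. *Cavin4* did not follow the markers in this way, because YT-FF 2, lowest in the muscle sum, held 26 counts. Of the 9 muscle markers tested 1 was called, *Acta1* (log2 fold change 2.67), and 2 had an unadjusted p under 0.05, beside 6852 of all 16807 genes. None of the 10 was at 0 in all libraries. The part of muscle RNA in the *Cav3* and *Cavin4* counts was not tested.

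**Figure D1:**
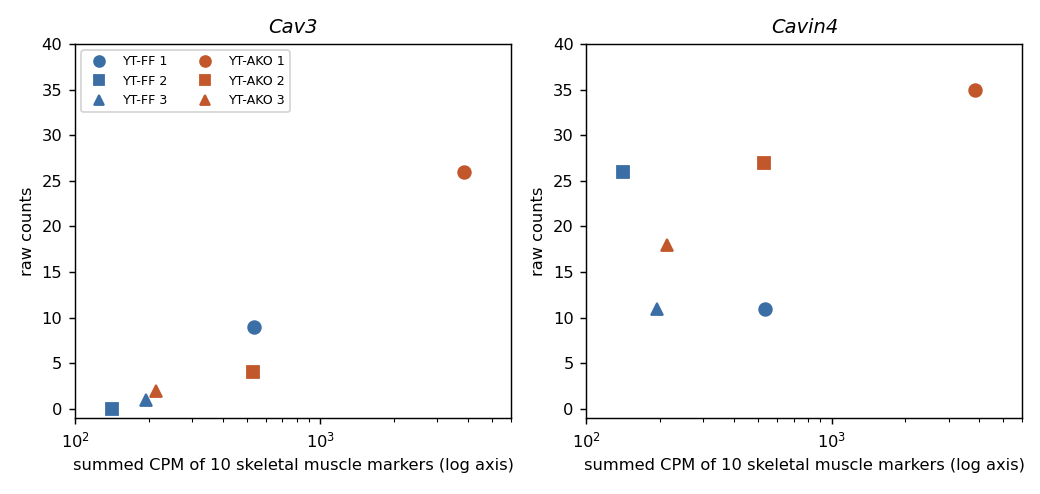
Raw counts of *Cav3* (left) and *Cavin4* (right) in each of the 6 libraries against the summed CPM of 10 skeletal muscle markers (log axis), with blue for YT-FF, orange for the libraries labelled YT-AKO and the symbol for the replicate number. Library 1 labelled YT-AKO lies at 3852 CPM with 26 counts of *Cav3*, and YT-FF 2 holds 26 counts of *Cavin4* at the lowest muscle sum, 141 CPM.

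*Ehd2*, an ATPase of the EHD family that rings the neck of a caveola and keeps it at the surface (chromosome 7, 15946958 to 15967567, minus strand), had 638, 657 and 910 CPM in YT-FF. The libraries labelled YT-AKO had 538, 449 and 824 CPM, so that libraries 1 and 2 lay below every YT-FF library and library 3 among them. The log2 fold change was -0.28 ± 0.275 (0.528-fold to 1.28-fold), and -0.14 after correction for gene length. It came to -0.10 without YT-FF 3, -0.11 without library 2 labelled YT-AKO and -0.57 without library 3 labelled YT-AKO, so its size rests on single libraries. *Pacsin2*, an F-BAR protein that bends the membrane at growing caveolae (chromosome 15, 83375607 to 83464606, minus strand), was the steadiest member. It had 71.6, 65.7 and 80.6 CPM in YT-FF and 82.5, 64.6 and 87.2 CPM in the libraries labelled YT-AKO. The log2 difference between the groups was 0.11 ± 0.172 (0.816-fold to 1.42-fold), and -0.20 under library totals alone.

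**Figure D2:**
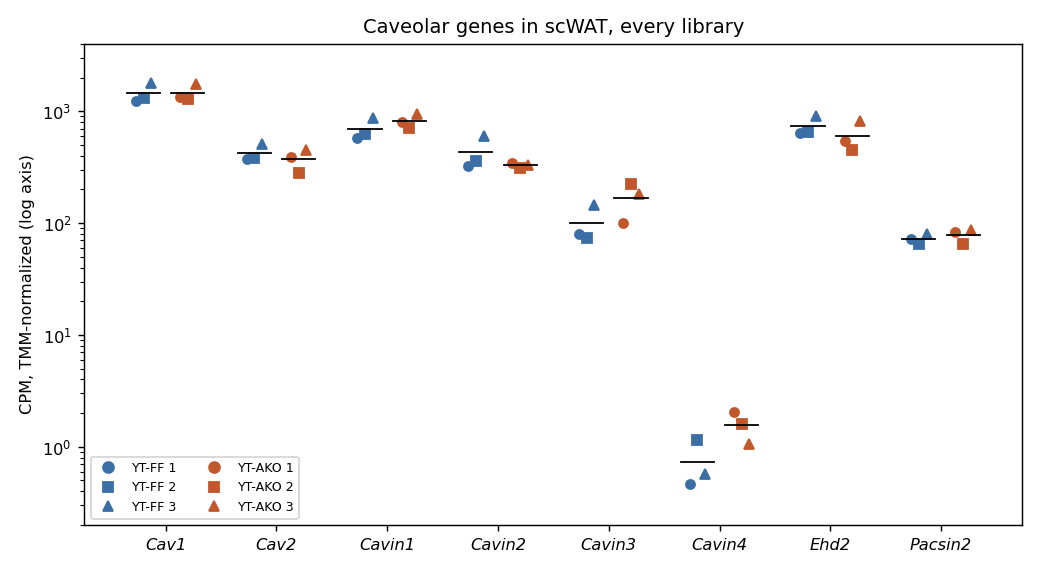
CPM with TMM factors (log axis) of the 8 caveolar genes tested, in every library, with blue for YT-FF, orange for the libraries labelled YT-AKO, the symbol for the replicate number and a bar at each group mean (n = 3). For each gene the groups overlap, library 3 of YT-FF is the highest of its group for every gene except *Cavin4*, and *Cavin2* in YT-FF 3 stands at 603 CPM above the other 5 libraries.

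Between genes, levels were compared as CPM per kilobase of exon. In YT-FF *Cav1* had 419 ± 89.2 CPM per kb (SD, n = 3), which ranked 49 among all genes. *Cavin1* had 193 ± 43.2, *Ehd2* 144 ± 29.7, *Cavin2* 140 ± 49.7 and *Cav2* 126 ± 21.8 CPM per kb, ranks 146 to 242. *Cavin3* had 60.2 ± 24.4 and *Pacsin2* 14.8 ± 1.53 CPM per kb, while *Cavin4* had 0.353 ± 0.177 and *Cav3* 0.125 ± 0.180 CPM per kb. On full exon lengths, neighbours in this order had separate ranges over the 3 YT-FF libraries at 4 places: *Cav1* above *Cavin1*, *Cav2* above *Cavin3*, *Cavin3* above *Pacsin2* and *Pacsin2* above *Cavin4*. The length of *Cavin3* includes the 22.5% of its exon bases shared with *Gm45667*, where fragments over both genes were dropped. Its level per kilobase is therefore understated, and its separation from *Cav2* may not hold over the bases that could be counted. The ranges of *Cavin1*, *Ehd2*, *Cavin2* and *Cav2* ran into each other, although *Cavin1* lay above *Ehd2* within each of the 6 libraries. Both muscle forms, *Cav3* and *Cavin4*, were below 1 CPM per kb on average in each group.

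The proportions of the set in RNA were compared as ratios of counts per kilobase within a library, which do not depend on how libraries are scaled. They are ratios of RNA from whole tissue and do not measure the proportions of the proteins in a caveola. Each of 6 ratios was compared with a two-sided exact permutation test over libraries, whose smallest possible p with 3 against 3 is 0.1. For 3 of the 6 ratios the groups did not overlap. The share of all genes with at least 10 CPM whose ratio did not overlap between the groups was 41.2% for ratios to *Cavin1* and 34% for ratios to *Cav1*, so that separation alone is common in these libraries.

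The ratio of *Cav1* to *Cavin1*, the caveolin and the coat protein, was nearly constant in YT-FF, at 2.20, 2.16 and 2.15. It was 1.73, 1.91 and 1.91 in the libraries labelled YT-AKO, all below YT-FF. The mean went from 2.17 ± 0.0289 to 1.85 ± 0.101 (SD), a log2 difference of -0.23 (exact permutation p = 0.1, adjusted over the 6 ratios 0.2). With each library left out the difference ran from -0.26 to -0.19.

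The largest log2 difference among the 6 ratios was that of *Cavin2* to *Cavin1*. This ratio was 0.658, 0.668 and 0.815 in YT-FF and 0.502, 0.514 and 0.411 in the libraries labelled YT-AKO. Every library of the latter lay below the lowest YT-FF library, and the log2 difference was -0.59 (exact permutation p = 0.1, adjusted 0.2). It stayed between -0.65 and -0.48 with each library left out, YT-FF 3 included, although that library carried the difference in the CPM of *Cavin2*, and corrected for gene length it came to -0.68. Without YT-FF 3 the log2 fold change was -0.05 for *Cavin2* and 0.44 for *Cavin1*, neither called. In that fit the ratio difference lay mostly in *Cavin1*. With every library kept, the log2 fold changes were -0.38 for *Cavin2* and 0.24 for *Cavin1*, and -0.69 and -0.06 under library totals alone. How the ratio difference divides between the 2 genes thus depends on the scaling and the libraries kept, and is not settled here.

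*Ehd2* to *Cav1*, the neck protein against the caveolin, was 0.350, 0.338 and 0.341 in YT-FF. It was 0.270, 0.234 and 0.319 in the libraries labelled YT-AKO, again below all of YT-FF but with a wider spread. The log2 difference was -0.34 (exact permutation p = 0.1, adjusted 0.2) and came to -0.16 after correction for gene length (exact permutation p = 0.4), so that this separation did not hold under the correction. The exons of *Ehd2* sum to 5119 bp and those of *Cav1* to 3444 bp.

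The other 3 ratios overlapped. *Cav1* to *Cav2* was 3.16, 3.31 and 3.44 in YT-FF and 3.33, 4.46 and 3.76 in the libraries labelled YT-AKO (log2 difference 0.21, exact permutation p = 0.2, adjusted 0.3). *Cavin3* to *Cavin1* was 0.299, 0.251 and 0.364 in YT-FF and 0.266, 0.682 and 0.414 in the libraries labelled YT-AKO, of which library 2 had the highest value of all 6 (log2 difference 0.49, exact permutation p = 0.3, adjusted 0.36). This difference came to 0.13 after correction for gene length, 0.14 without library 2 labelled YT-AKO and 0.82 without library 1 labelled YT-AKO. The *Cavin3* to *Cavin1* ratios are understated in both groups, since the length of *Cavin3* includes the bases shared with *Gm45667*. *Pacsin2* to *Cav1* was 0.0409, 0.0352 and 0.0315 against 0.0432, 0.0352 and 0.0352 (log2 difference 0.08, exact permutation p = 0.7), and its sign turned when YT-FF 3 or library 1 labelled YT-AKO was left out.

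**Figure D3:**
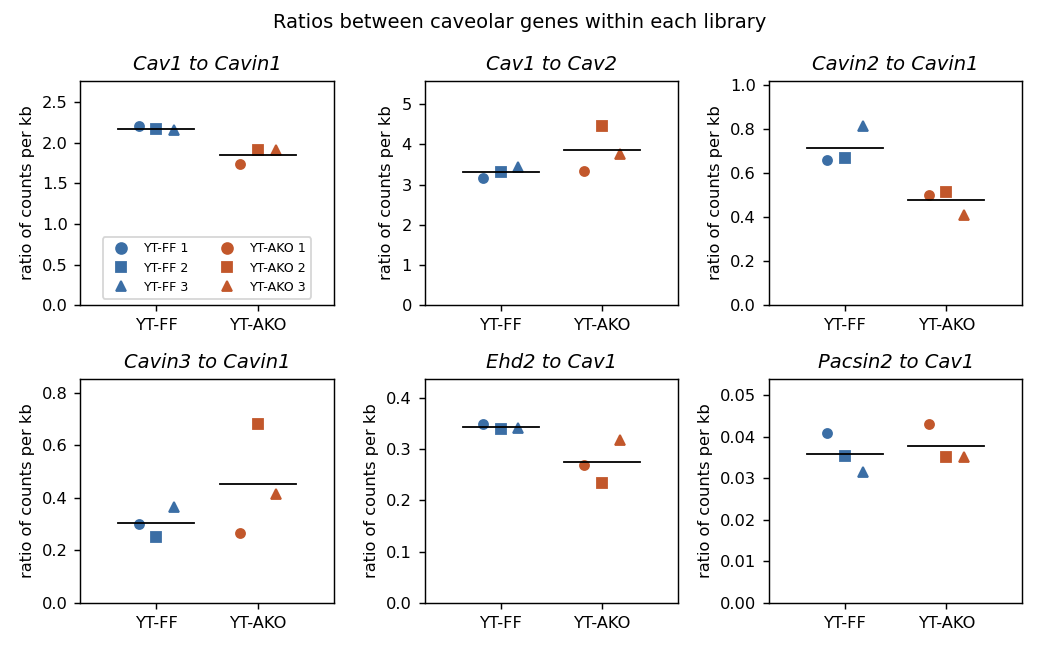
The 6 ratios of counts per kilobase within each library, on axes that start at 0, with blue for YT-FF, orange for the libraries labelled YT-AKO, the symbol for the replicate number and a bar at each group mean (n = 3). The ratios of *Cav1* to *Cavin1*, *Cavin2* to *Cavin1* and *Ehd2* to *Cav1* are lower in every library labelled YT-AKO than in any YT-FF library, and the other 3 overlap.

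The profile of a gene over the 6 libraries was also compared with that of every gene with a mean of at least 10 CPM, by the root-mean-square difference of centred log2 CPM. For *Cav1* the closest were *Nln* (0.0518), which encodes a peptidase, *Mxra8* (0.0619), *D6Wsu163e* (0.0631) and the autophagy receptor gene *Optn* (0.0730). Of the caveolar genes, *Cavin1* was 45th by likeness to *Cav1* (0.126), *Pacsin2* 130th and *Cav2* 210th among 10335 genes. *Ehd2* was 779th, *Cavin2* 1392nd and *Cavin3* 7392nd. The genes closest to *Cavin1* were *Sardh* (0.0640), *Hfe* (0.0678), *Dynlt3* (0.0683) and *Fbxo8* (0.0728), and *Cav1* was 73rd. By likeness to *Cavin1*, *Pacsin2* was 195th, *Cav2* 1344th, *Ehd2* 2970th, *Cavin2* 3126th and *Cavin3* 6373rd. *Cavin2* had less close matches, from *Gm4204* (0.120) and *Irak2* (0.138) to *Pqlc3* (0.141) and *Adk* (0.142). Its nearest caveolar gene was *Cav2*, 126th, followed by *Cav1*, 212th, and *Ehd2*, 429th. *Pacsin2* was 1291st, *Cavin1* 1563rd and *Cavin3* 8241st. These likenesses rest on 6 libraries and describe their spread.

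Around the 9 genes, 24 partner genes were read from the same fit. Not all of them act at caveolae, as they include the flotillins and 2 other genes of inherited fat loss, *Agpat2* and *Bscl2*. All 24 were tested and 6 (25.0%, beside 21.6% of all genes) were called, 5 higher and 1 lower, with a median log2 fold change of -0.03. The flotillins gave 1 of these calls and the genes of inherited fat loss 2, so the share does not describe caveola proteins alone. In CPM 17 of the 24 did not overlap between the groups, beside 51.5% of all genes. DESeq2 called 5 higher and 5 lower, and limma-voom 5 and 1. The calls depended on the control libraries: 0 of the 24 were called higher without YT-FF 1 or without YT-FF 2, and 2 without YT-FF 3, while the calls over all genes fell from 3636 to 0, 2 and 1232. Without library 2 labelled YT-AKO, 7 were called higher and 5 lower. After correction for gene length *Ehd3*, *Flot1* and *Agpat2* did not pass (adjusted p = 0.0540, 0.0729 and 0.0501 in edgeR's quasi-likelihood test).

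The EHD and PACSIN families gave 3 of these calls among their 5 relatives of *Ehd2* and *Pacsin2*. *Ehd1*, an ATPase of endocytic recycling, had 126, 132 and 148 CPM in YT-FF and 275, 284 and 232 CPM in the libraries labelled YT-AKO. All 3 of the latter lay well above the controls, and the log2 fold change was 0.97 ± 0.163 (SE; adjusted p = 0.0177, edgeR QL test, Benjamini-Hochberg). *Ehd3*, its close relative on recycling endosomes, went the other way, with 42.5, 48.1 and 31.4 CPM in YT-FF and 15.9, 10.5 and 25.5 CPM in the libraries labelled YT-AKO (log2 fold change -1.23 ± 0.326, adjusted p = 0.0368 by the same test). *Pacsin3*, the PACSIN best known from muscle, rose from 15.4, 12.3 and 17.3 CPM to 32.8, 30.6 and 21.5 CPM (0.92 ± 0.224, adjusted p = 0.0305). *Ehd4* (-0.08) and *Pacsin1* (-0.64) were not called.

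Set against the caveolar member of the same family, which was chosen after these values were seen, the ratio of *Ehd1* to *Ehd2* per kilobase was 0.272, 0.277 and 0.224 in YT-FF and 0.707, 0.874 and 0.389 in the libraries labelled YT-AKO. The ratio of *Pacsin3* to *Pacsin2* was 0.244, 0.212 and 0.244 in YT-FF and 0.451, 0.537 and 0.280 in the libraries labelled YT-AKO. The ratio of *Ehd3* to *Ehd2* was 0.0520, 0.0571 and 0.0269 in YT-FF and 0.0230, 0.0183 and 0.0241 in the libraries labelled YT-AKO. The first 2 of these ratios were higher in all 3 libraries labelled YT-AKO than in any YT-FF library and the last was lower in all 3. The ratios of the uncalled relatives overlapped between the groups: *Ehd4* to *Ehd2* was 0.122, 0.145 and 0.0968 in YT-FF and 0.146, 0.164 and 0.114 in the libraries labelled YT-AKO. *Pacsin1* to *Pacsin2* was 0.178, 0.168 and 0.110 against 0.0641, 0.129 and 0.0836. Of all genes with at least 10 CPM, 32.4% had a ratio to *Ehd2* that did not overlap between the groups, and 52.4% a ratio to *Pacsin2*. In every library *Ehd2* was above its 3 relatives per kilobase and *Pacsin2* above its 2.

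Of the flotillins, scaffolds of membrane domains without caveolae, *Flot1* had 75.8, 66.7 and 93.6 CPM in YT-FF and 101, 151 and 148 CPM in the libraries labelled YT-AKO (log2 fold change 0.76 ± 0.215, adjusted p = 0.0430, edgeR QL test, Benjamini-Hochberg). *Flot2* was not called (0.39). The 3 dynamin genes, whose GTPases cut vesicles from the membrane, had values from -0.12 to 0.17 and 0 were called by edgeR, 0 by DESeq2 and 0 by limma-voom. In edgeR 0 of them had an unadjusted p under 0.05, beside 6852 of all 16807 genes.

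The other genes of inherited generalized lipodystrophy, which share that disease with *Cav1* and *Cavin1*, were both higher. *Agpat2*, an acyltransferase of triglyceride synthesis, went from 450, 488 and 536 CPM to 1042, 798 and 1097 CPM, a log2 fold change of 0.99 ± 0.199 (adjusted p = 0.0213, edgeR QL test, Benjamini-Hochberg). *Bscl2*, which encodes the lipid droplet protein seipin, went from 178, 211 and 220 CPM to 369, 708 and 402 CPM, 1.28 ± 0.276 (adjusted p = 0.0241 by the same test). Of its exon bases 10.8% are shared with other genes. Neither gene overlapped between the groups, as was so for 51.5% of all genes tested, whereas *Cav1* and *Cavin1* did.

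Among the 5 genes for receptors, transporters and enzymes of adipocyte caveolae, 0 were called by edgeR and by limma-voom. An unadjusted p under 0.05 in edgeR was found for 3 of them, beside 6852 of all 16807 genes. DESeq2 called 3 of them lower. In CPM 3 of the 5 did not overlap between the groups, beside 51.5% of all genes, and the median log2 fold change was -0.53. *Cd36* and *Insr* did not pass the test in edgeR. *Cd36*, the fatty acid carrier whose surface delivery depends on caveolin-1, had 1856, 2006 and 2651 CPM in YT-FF and 2332, 1562 and 2777 CPM in the libraries labelled YT-AKO (log2 fold change 0.03, adjusted p = 0.934, edgeR QL test, Benjamini-Hochberg). *Insr*, the insulin receptor, had 114, 138 and 136 CPM against 104, 77.0 and 87.6 CPM, with no overlap. Its log2 fold change was -0.53 (adjusted p = 0.0601 in edgeR and 0.0391 in DESeq2), and 0.01 after correction for gene length. *Aoc3* had 1008, 941 and 1303 CPM against 620, 518 and 861 CPM, also with no overlap. Its log2 fold change was -0.70 (adjusted p = 0.0756 in edgeR and 0.0255 in DESeq2), and -0.59 after correction for gene length. *Slc2a4* overlapped between the groups and was not called (0.34).

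Both endothelial caveola genes had higher CPM in all 3 libraries labelled YT-AKO than in any YT-FF library, but neither passed the test. Such separation, in either direction, was common, with 51.5% of all genes tested not overlapping between the groups. *Nos3*, the nitric oxide synthase held inactive by caveolin-1, had 61.2, 62.7 and 58.4 CPM in YT-FF and 90.3, 69.6 and 99.3 CPM in the libraries labelled YT-AKO (log2 fold change 0.51, adjusted p = 0.0662, edgeR QL test, Benjamini-Hochberg). After correction for gene length its value was 0.58 (adjusted p = 0.0426). It shares 32.3% of its exon bases with genes on the opposite strand. *Plvap*, the protein of the diaphragm across endothelial caveolae, had 117, 109 and 118 CPM against 153, 176 and 136 CPM (0.43, adjusted p = 0.0841), and 0.13 after correction for gene length. The 5 binding partners and kinases (*Flna*, *Prkcd*, *Ror1*, *Src* and *Fyn*) had values from -0.77 to -0.27 and 0 were called by edgeR and by limma-voom. In edgeR 3 of them had an unadjusted p under 0.05, beside 6852 of all 16807 genes. DESeq2 called 1 of them lower, *Flna*.

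**Figure D4:**
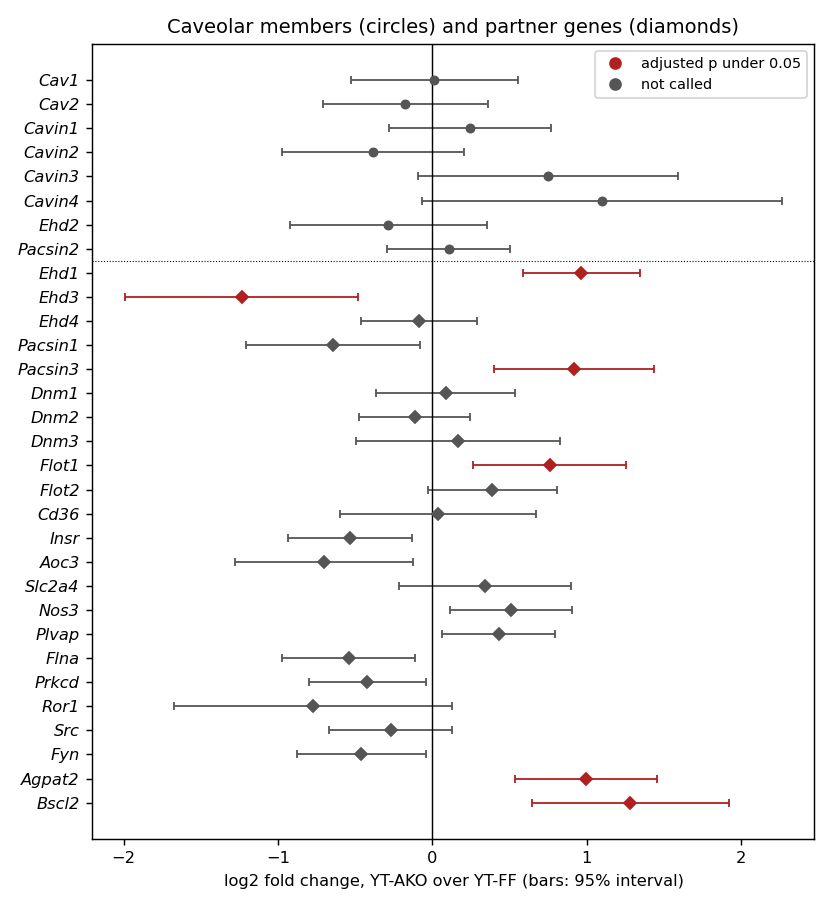
Log2 fold changes of the libraries labelled YT-AKO over YT-FF with 95% intervals, from edgeR's fit to all 16807 genes, for the 8 caveolar genes tested (circles, above the dotted line) and the partner genes reported (diamonds); red marks an adjusted p under 0.05. The interval of each caveolar gene crosses 0, and the 6 genes in red are *Ehd1*, *Pacsin3*, *Flot1*, *Agpat2* and *Bscl2* to the right and *Ehd3* to the left.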

How the data were processed

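Counts from scWAT RNA-seq of both genotypes (3 libraries each) were grouped by the sample labels. The authors aligned paired-end reads to mm10 by HISAT2 and assigned fragments to GENCODE vM25 exons by featureCounts 2.0.1, without strand and leaving out fragments with several locations or genes. The deposited values are raw counts per gene, 17740987 to 21838493 per library, which carry no molecular identifiers, so intervals and the floor of 3 counts cover counting error only. Of 55401 genes, 55141 were matched to symbols. DESeq2, named in the submitters' processing notes, served as an alternative.

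Counts were fitted in edgeR 4.0.16 (R 4.3.3) with TMM factors, filterByExpr (minimum count 10, total 15), the quasi-likelihood test and Benjamini-Hochberg adjustment over 16807 genes, called at an adjusted p under 0.05. Fold changes are the libraries labelled YT-AKO over YT-FF. CPM per kb used summed exon lengths, with bases shared between genes included. Ratios were compared with exact permutation tests adjusted over 6 ratios. The gene length correction used a spline with 6 degrees of freedom per library. Scripts were tested on simulated data. Alternatives were DESeq2 1.42.0, limma-voom (limma 3.58.1), RLE, upper-quartile and library-total scaling, 2 other filters, a robust fit, the replicate number as a block, gene length, and each library left out.

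Named genes were the 9 members, partner genes called or fixed (*Cd36*, *Insr*, *Nos3*, *Plvap*), the targeted genes, up to 3 examples per marker list and the 4 nearest profiles of *Cav1*, *Cavin1* and *Cavin2*; others were named after their values were seen. A partner gene that enters the counts is not reported here by name. The members and lists were chosen with earlier results of these data known. Of the marker lists read beside the members, smooth muscle had 0 of 5 tested genes called by edgeR, DESeq2 and limma-voom (0 at an unadjusted p under 0.05), fibroblast and progenitor 2 higher and 1 lower of 6, macrophage 1 higher of 6, B cell 3 lower of 6 and epithelium 0 of 2 tested (0 at an unadjusted p under 0.05, and 0 by DESeq2 and limma-voom). Promoter windows came from RefSeq on GRCm38.p6.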

Additional observations from a re-analysis of the deposited data

How the results depend on the processing

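The count of 0 caveolar genes called, in either direction, held in all 17 alternative fits, and with each library left out it ranged from 0 to 0. Some of these fits called hardly any gene at all. Over all genes, 0 were called without YT-FF 1 and 2 without YT-FF 2. The replicate number as a block gave 33 calls, and 65 together with the gene length correction. In those fits a count of 0 caveolar genes was nearly fixed in advance and says nothing on stability. Of 136 fold changes of the 8 tested genes under all 17 settings, 127 kept their sign and stayed uncalled and 9 turned sign without a call. *Cav1* turned at -0.0153 with at least 10 counts in every library, -0.00142 with the gene length correction, -0.29 with library totals alone and -0.0270 with upper-quartile factors, and ran from -0.12 to 0.20 with each library left out. With each library left out *Cavin1* ran from 0.13 to 0.44, *Cavin3* from 0.50 to 1.14, *Cavin4* from 0.86 to 1.58 and *Pacsin2* from 0.03 to 0.22, all uncalled. Library totals alone also turned *Cavin1* (-0.0601) and *Pacsin2* (-0.20). The ratio of *Pacsin2* to *Cav1* ran from -0.0207 to 0.18 on the log2 scale with each library left out. The counts of partner genes moved more. The 5 called higher became 2 with library totals alone and 0 to 7 with a library left out, and the 1 called lower became 5 with DESeq2, 2 with at least 10 counts in every library, 2 with no filter, 0 with the gene length correction, 8 with library totals alone and 0 to 5 with a library left out. Library totals alone shift the median of all genes, and leaving out a library leaves fewer samples; for the other settings the cause was not tested.

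The same-numbered libraries of the groups correlated in their deviations from the group means at 0.126, -0.118 and -0.0893, so the numbers were not taken as pairs, and not every library correlated best with its own number. With the replicate number as a block, 0 partner genes were called higher and 0 lower, also 0 and 0 together with the gene length correction, and the calls over all genes fell from 2121 higher and 1515 lower to 24 and 9. The block called 0 caveolar genes. Over all genes, DESeq2 called 2880 higher and 2243 lower, and with both the block and the length correction 46 and 19 were called. Leaving out library 2 labelled YT-AKO gave 2925 and 2424. Depth limits *Cav3* (42 counts in all) and *Cavin4* only, and the smallest p of the ratio tests, 0.1, is set by 3 libraries against 3.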
